A study of Homo sapiens with 5 samples.

Results

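Nuclear genes of the respiratory chain and ATP synthase were examined in LNCaP cells, an established line of androgen-sensitive human prostate cancer. Genes were taken by symbol: those starting with NDUF, SDHA to SDHD, SDHAF, UQC, COX followed by a digit or ATP5, together with SURF1, SCO1, SCO2 and CYC1. Genes of chromosome 21, pseudogenes and antisense or divergent transcripts were left out. This gave 46 of the 14812 genes with a named probe set. They were 17 subunits and 9 assembly factors of complex IV, 6 subunits and 5 assembly factors of complex III, 4 assembly factors of complex II, 2 assembly factors of complex I and 3 proteins of ATP synthase. A further 70 protein-coding genes fit the same symbols and had no named probe set. They include all of the NDUF subunits of complex I outside chromosome 21, the 4 subunits of complex II and the catalytic subunits of ATP synthase, and are not analysed here. The label of the group therefore covers mainly complexes III and IV in these data.

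The cells of interest carried a retroviral short hairpin RNA against RB1 (shRB, 3 arrays) and the comparison cells a scrambled hairpin (shControl, 2 arrays). Both populations were selected with puromycin, both received 10 Gy of ionizing radiation, and RNA was taken 24 h later, so no unirradiated cells enter the comparison. The labels name neither the hairpin sequence nor separate clones or cultures, so p-values measure only the spread between these arrays, which may be technical.

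Oxidative phosphorylation passes electrons from NADH and succinate through complexes I to IV of the inner mitochondrial membrane to oxygen, and the proton gradient that results drives ATP synthase. Complex III hands electrons to cytochrome c, and complex IV, cytochrome c oxidase, reduces oxygen. Its catalytic core is encoded in mitochondrial DNA and is surrounded by nuclear-encoded subunits, several of which exist as a widely expressed isoform and one restricted to muscle, lung or testis. Assembly factors insert haem, copper and iron-sulfur centres or hold unfinished subunits, and are not part of the finished enzymes.

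Promoters are shown for the members that passed the test, COX7B2 and UQCC6, for COX7B, the widely expressed partner of COX7B2, and for COX8A, the widely expressed complex IV subunit with the greatest difference. Each run spans 250 bases before to 50 after the gene's start, 5′ to 3′ on the gene's strand, from RefSeq on GRCh38.p14. Capitals mark letters of any of 5 motifs found on either strand: GCGCA, any base, GCGC (NRF1), TTTGGCGC, TTTCCCGC, TTTCGCGC or TTTGCCGC (E2F), CCGGAAGT (GABP, an ETS factor), CCAAT and TATAAA.
COX7B2, chr4:46909196-46909495, minus strand: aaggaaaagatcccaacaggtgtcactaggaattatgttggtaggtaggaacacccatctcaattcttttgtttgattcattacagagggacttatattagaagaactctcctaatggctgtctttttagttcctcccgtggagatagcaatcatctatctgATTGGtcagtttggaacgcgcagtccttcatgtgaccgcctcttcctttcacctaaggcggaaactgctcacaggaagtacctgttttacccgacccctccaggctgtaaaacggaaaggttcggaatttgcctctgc
COX7B, chrX:77899218-77899517, plus strand: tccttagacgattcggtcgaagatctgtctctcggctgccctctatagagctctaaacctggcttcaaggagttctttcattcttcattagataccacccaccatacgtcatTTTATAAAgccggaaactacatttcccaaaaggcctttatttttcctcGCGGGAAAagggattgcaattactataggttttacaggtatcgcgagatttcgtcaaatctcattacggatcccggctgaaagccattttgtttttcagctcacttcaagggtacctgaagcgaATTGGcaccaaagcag
UQCC6, chr12:103957166-103957465, minus strand: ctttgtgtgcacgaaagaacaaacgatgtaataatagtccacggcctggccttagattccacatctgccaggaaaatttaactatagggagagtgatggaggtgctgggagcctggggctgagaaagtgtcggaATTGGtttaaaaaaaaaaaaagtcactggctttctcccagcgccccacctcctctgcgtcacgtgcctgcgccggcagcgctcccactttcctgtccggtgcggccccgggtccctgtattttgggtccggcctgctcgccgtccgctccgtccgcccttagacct
COX8A, chr11:63974370-63974669, plus strand: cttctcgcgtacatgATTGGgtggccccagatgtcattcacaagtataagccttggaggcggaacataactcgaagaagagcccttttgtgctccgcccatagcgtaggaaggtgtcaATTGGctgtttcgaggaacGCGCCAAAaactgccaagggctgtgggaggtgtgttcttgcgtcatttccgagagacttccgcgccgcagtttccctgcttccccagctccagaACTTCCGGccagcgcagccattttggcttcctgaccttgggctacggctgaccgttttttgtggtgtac
In COX7B2 and in UQCC6 the only match was the reverse of CCAAT, printed as ATTGG. COX7B held 1 E2F match, 1 reverse CCAAT and a TATAAA on each strand, which overlap. COX8A held 1 E2F match, 1 GABP match and 2 reverse CCAAT.

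A promoter was matched for 37 of the 46 members and for 10736 of the genes tested. NRF1 letters stood in 10 of the 37 (27.0%), against 8.80% of all, and GABP letters in 7 (18.9%), against 6.58% of all. NRF1 and GABP are factors known to drive nuclear respiratory genes. E2F letters stood in 4 of the 37 (10.8%), those of COX18, COX7B, COX7C and COX8A, against 4.50% of all. CCAAT was found in 16 (43.2%), against 36.0%, and TATAAA in 4 (10.8%), against 8.50%. A match describes the letters of this window and says nothing of binding. The 4 promoters with E2F letters belonged to genes whose log2 differences were -0.02 (COX18), 0.18 (COX7B), 0.00 (COX7C) and 0.62 (COX8A). Members without a matched promoter were not searched, and they include SCO2 (0.65), UQCC3 (0.64) and COX11 (0.42). The COX7B2 promoter held 8 CpG dinucleotides in its 300 bases, against a median of 23 in all promoters and 22 in those of the members. The 4 restricted isoforms with a matched promoter had a median of 9. Of the others, which did not pass the test, COX6A2 held 5, COX8C 10 and COX6B2 31.

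Array medians of the deposited intensities lay between 26.65 and 28.06. RB1, the hairpin's target, had log2 intensities of 5.16, 5.28 and 5.20 in shRB and 5.81 and 5.70 in shControl, without overlap, and its difference of -0.54 (SE 0.14) had an adjusted p of 0.0967 (limma, Benjamini-Hochberg over all genes, as for every adjusted p here). The 4 luminal prostate markers with a named probe set (KLK3, KLK2, FOLH1 and HOXB13, of 9 listed) had mean log2 intensities of 7.64 to 10.10. Stromal, blood, basal and neuroendocrine markers (7 measured) lay between 4.35 and 5.26, where the lowest value on any array is 4 and the median gene 5.25. Over all genes, 159 (1.07%) were called, 103 higher and 56 lower in shRB, or 60 and 55 after quantile normalization. The constant of 16 that appears to have been added to every deposited value compresses differences of dim genes.

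Of the 46 members, 2 rose in shRB at an adjusted p under 0.05, COX7B2 and UQCC6, where 0.695% of all genes did so. None of the 46 was called lower (limma), against 0.378% of all genes. At an unadjusted p under 0.05, 10 members were higher (10.9% of all genes) and 1 was lower (7.22% of all genes). Positive differences numbered 35 of 46 (76.1%), where 53.8% of all genes had one. After subtraction of array medians 30 were positive, against 49.0% of all genes. The median difference of the members was 0.12 on the log2 scale, and that of all genes 0.02. In 17 members (37.0%) every shRB array lay above both shControl arrays, as in 20.6% of all genes. In 5 (10.9%) every shRB array lay below them, as in 15.4% of all genes. Since RNA was pooled over many cells, a change in the share of cells with a transcript and a change per cell cannot be told apart.

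**Figure D1:**
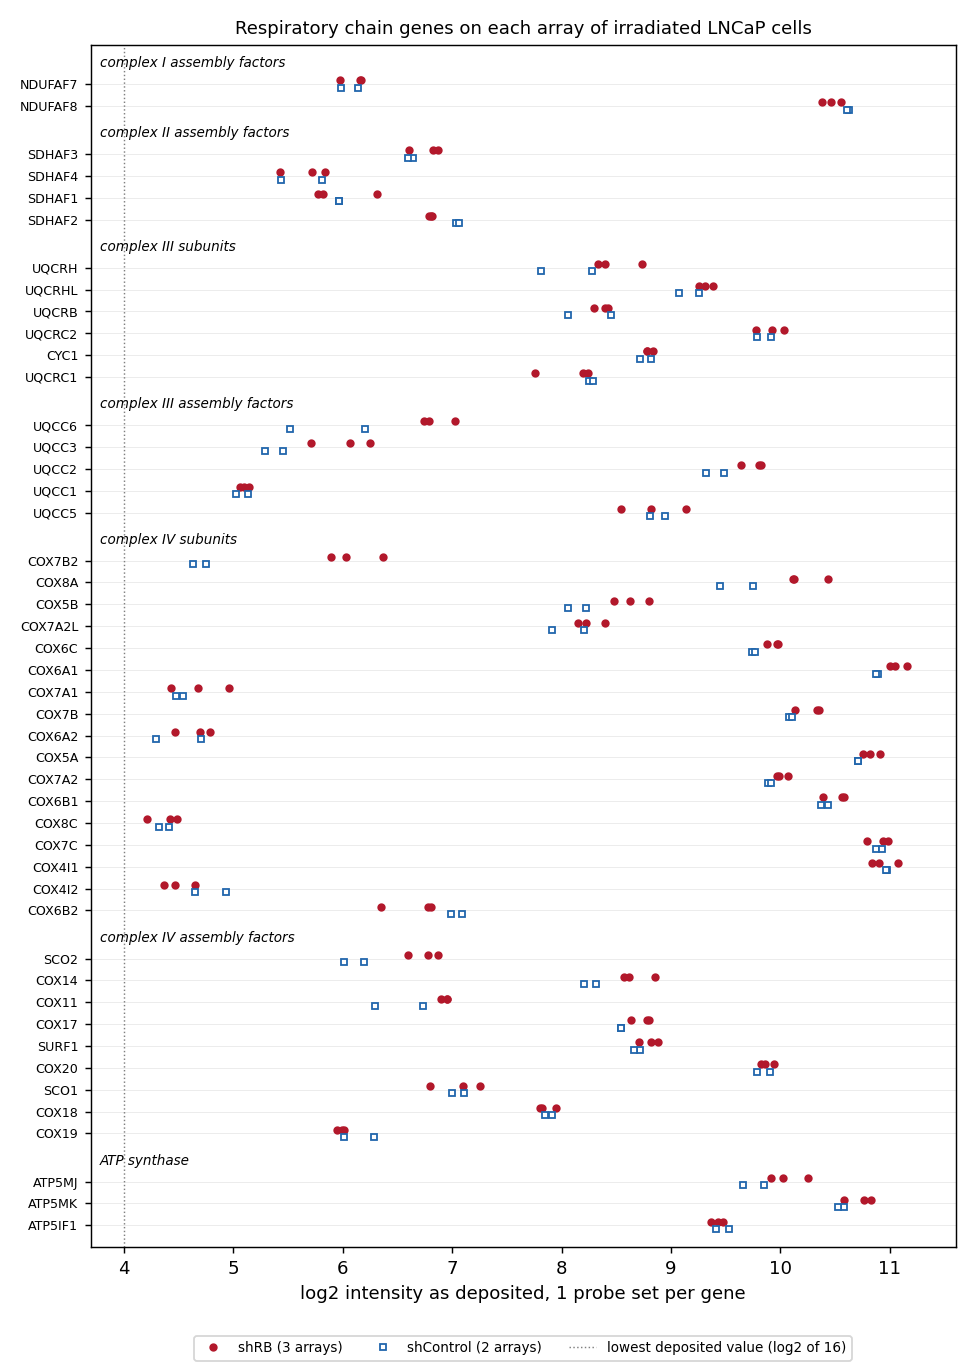
Log2 intensity of the 46 members on each array, by complex, with 1 row per gene, filled circles for the 3 shRB arrays and open squares for the 2 shControl arrays. COX7B2 shows the widest gap between the groups, followed by UQCC6. The dotted line at 4 is the lowest value the deposited scale allows.

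Many members were bright, and among bright genes as a whole negative differences were the more frequent on the deposited scale. The split by level was made on the deposited values only, so whether it holds after quantile normalization was not tested. Of the 1083 genes with a mean log2 intensity of 8 or more, 43.2% had a positive difference, with a median of -0.05. The 27 members at that level had 22 positive differences (81.5%) and a median of 0.12. Below 8, 13 of 19 members were positive, with a median of 0.04, and 54.7% of all such genes were, with a median of 0.03. The median SD of a member was 0.13 over the shRB arrays and 0.08 over the shControl arrays.

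**Figure D2:**
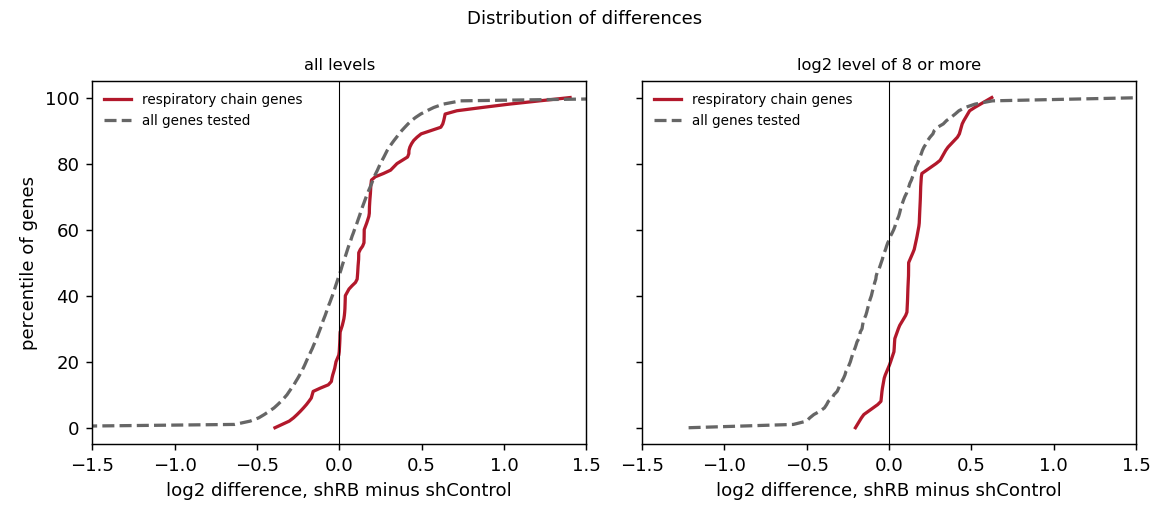
Log2 difference, shRB minus shControl, at each whole percentile of the members (solid line) and of all genes tested (dashed line), for genes of any level on the left and for those with a mean log2 intensity of 8 or more on the right. The curve of the members crosses the 50th percentile at 0.12 in both panels, against 0.02 and -0.05 for all genes.

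COX7B2, on chromosome 4, is a homolog of the complex IV subunit COX7B with expression known mainly from testis. Its log2 intensities were 6.03, 5.89 and 6.37 in shRB and 4.63 and 4.76 in shControl (probe set 16975634). All 3 shRB arrays lay more than 1 log2 unit above both shControl arrays. shRB averaged 6.09 ± 0.24 (SD, n = 3) and shControl 4.69 ± 0.09 (SD, n = 2), a difference of 1.40 (SE 0.17, 95% interval 1.03 to 1.78, adjusted p = 0.00312). As deposited, intensities were 65.3, 59.3 and 82.4 in shRB and 24.8 and 27.0 in shControl. This is 2.64-fold higher on the deposited scale and 5.36-fold with 16 taken off each value. The shControl level is close to the lowest value the scale allows, so it may be background and the true fold is unknown. With 16 removed and 4 added before the logarithm, the difference was 2.02 and the adjusted p 0.0654. COX7B2 passed whichever of the 5 arrays was left out (adjusted p up to 0.0482). Its 4 nearest protein-coding neighbours by gene order are GABA receptor genes with no named probe set.

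COX7B, the widely expressed partner on chromosome X, had log2 intensities of 10.33, 10.13 and 10.36 in shRB and 10.08 and 10.10 in shControl. The groups did not overlap, but by a small margin, and the difference of 0.18 (95% interval -0.14 to 0.51) did not pass (adjusted p = 0.555). Among the other restricted isoforms none passed. COX6B2, a testis isoform, had 6.81, 6.78 and 6.35 in shRB and 6.99 and 7.09 in shControl. Every shRB array was lower, with a difference of -0.39 (95% interval -0.77 to -0.01, adjusted p = 0.265). COX4I2, the lung isoform, stood at -0.29 (adjusted p = 0.364), the muscle isoforms COX7A1 at 0.18 (adjusted p = 0.616) and COX6A2 at 0.15 (adjusted p = 0.688), and the testis isoform COX8C at 0.01 (adjusted p = 0.990). These 4 had group means of 4.37 to 4.79, near the bottom of the scale, where the added constant compresses differences. The widely expressed partners COX4I1 (-0.03), COX7A2 (0.11), COX6A1 (0.19) and COX6B1 (0.11) did not pass either.

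**Figure D3:**
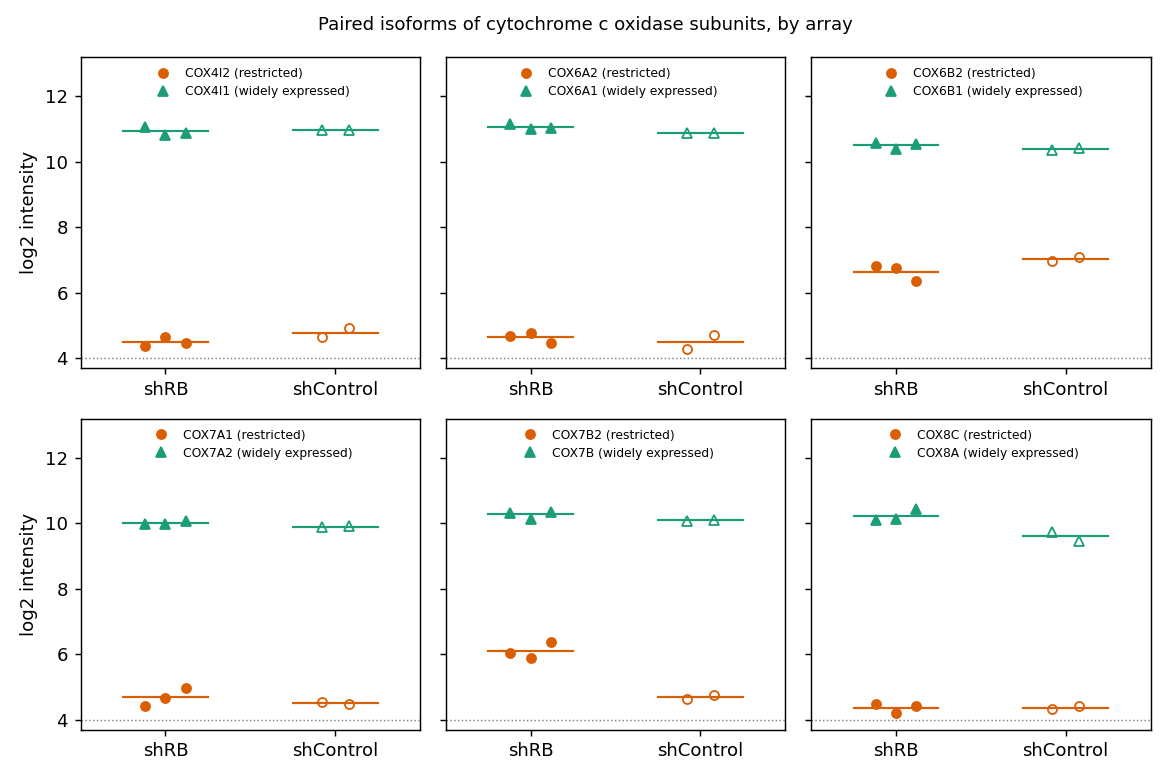
Log2 intensity of 6 pairs of complex IV isoforms on each array, shRB left (filled) and shControl right (open), with circles for the restricted isoform, triangles for the widely expressed one and bars for group means. COX7B2 is higher in shRB (mean 6.09) than in shControl (4.69), COX6B2 lies slightly lower in shRB, and COX4I2, COX6A2, COX7A1 and COX8C lie near the dotted line at 4. Heights of different genes are from different probe sets and are not to be compared.

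Among widely expressed subunits of complex IV, COX8A and COX5B had the greatest differences. COX8A, a small membrane subunit, had log2 intensities of 10.11, 10.12 and 10.44 in shRB and 9.75 and 9.45 in shControl. The groups lay apart, and shRB averaged 10.22 ± 0.18 (SD, n = 3) against 9.60 ± 0.21 (SD, n = 2) for shControl. The difference of 0.62 (SE 0.17, 1.54-fold as deposited) missed the threshold at an adjusted p of 0.0976. COX5B, a matrix-side subunit, had 8.48, 8.62 and 8.80 in shRB and 8.23 and 8.06 in shControl, again without overlap. Its difference was 0.49 (95% interval 0.15 to 0.84, adjusted p = 0.143). With an intensity trend and robust variances, where 1.76% of all genes were called higher, both COX8A (adjusted p = 0.00493) and COX5B (0.0395) passed. With any shRB array left out neither passed (adjusted p up to 0.331 and 0.395). Nor did they with the constant of 16 removed (0.246 and 0.285) or the replicate block (0.330 and 0.423). The other 9 widely expressed subunits, from COX7A2L, which also joins complexes III and IV into supercomplexes, to COX4I1, had differences of -0.03 to 0.20. In 7 of these 11 subunits, COX8A and COX5B included, all shRB arrays lay above both shControl arrays, as in 20.6% of all genes. COX7C (0.00, 95% interval -0.32 to 0.33) was among those that overlapped.

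Complex IV needs copper delivered by dedicated chaperones. SCO2, which brings copper to the subunit COX2 and is also known as a p53 target, had log2 intensities of 6.87, 6.60 and 6.78 in shRB and 6.19 and 6.02 in shControl. No shRB array reached down to the shControl arrays, and shRB averaged 6.75 ± 0.14 (SD, n = 3) against 6.10 ± 0.13 (SD, n = 2) for shControl. The difference of 0.65 (SE 0.15) had an adjusted p of 0.0744. It passed when the dimmer genes (mean below that of the median gene) were dropped (adjusted p = 0.0332, 3.61% of genes called higher) and with the intensity trend (0.0364). SCO2 missed the threshold with any shRB array left out (adjusted p up to 0.295), the constant of 16 removed (0.189) or the replicate block (0.263). SCO2 overlaps NCAPH2 and TYMP in the RefSeq annotation, and neither has a named probe set. SCO1, its homolog, differed by 0.00 (95% interval -0.37 to 0.37).

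COX11, which delivers copper to COX1, had 6.95, 6.95 and 6.90 in shRB and 6.73 and 6.29 in shControl (difference 0.42, adjusted p = 0.212). The gap rests largely on shControl replicate 2, without which the difference was 0.20. COX17, the copper donor to SCO1, SCO2 and COX11, stood at 0.19 (adjusted p = 0.520). COX14, an early partner of new COX1, had 8.62, 8.57 and 8.85 in shRB and 8.31 and 8.20 in shControl. Its groups lay apart, at a difference of 0.42 that did not pass (adjusted p = 0.185). SURF1, which acts on the haem step of COX1 (0.11), the COX2 chaperone COX20 (0.03), the insertase COX18 (-0.02) and COX19 (-0.17) did not pass. In all, 6 of the 9 assembly factors were positive and 3 negative, with a median of 0.11.

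In complex III the median difference was 0.35 over 5 assembly factors and 0.09 over 6 subunits, a contrast that was not tested. UQCC6, a microprotein of complex III assembly on chromosome 12, had log2 intensities of 6.75, 6.78 and 7.03 in shRB and 6.20 and 5.52 in shControl. All shRB arrays were higher, but the 2 shControl arrays were 0.68 apart. shRB averaged 6.85 ± 0.15 (SD, n = 3) and shControl 5.86 ± 0.48 (SD, n = 2), a difference of 0.99 (SE 0.20, 95% interval 0.55 to 1.43, adjusted p = 0.0457), or 1.99-fold as deposited. Without shControl replicate 2 the difference was 0.65 (adjusted p = 0.0958) and without shControl replicate 1 it was 1.33 (adjusted p = 0.0102). UQCC6 missed the threshold whichever shRB array was left out (adjusted p up to 0.256) and after quantile normalization (0.0733). It also missed with the constant of 16 removed (0.173) and with the replicate block (0.207). The adjacent gene TDG (-0.27) and, on the other side, NT5DC3 (0.28) did not pass. HSP90B1, which lies between NT5DC3 and UQCC6 by gene order, has no named probe set.

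UQCC3, which stabilises cytochrome b, had 5.71, 6.07 and 6.25 in shRB and 5.29 and 5.46 in shControl. The groups did not overlap, with a difference of 0.64 (95% interval 0.24 to 1.03, adjusted p = 0.107). UQCC2, which binds new cytochrome b, had 9.82, 9.64 and 9.81 in shRB and 9.49 and 9.32 in shControl (0.35, adjusted p = 0.248). Its partner UQCC1 (0.02) and the assembly factor UQCC5 (-0.04) overlapped between groups. Of these 5 factors, UQCC6 alone passed.

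**Figure D4:**
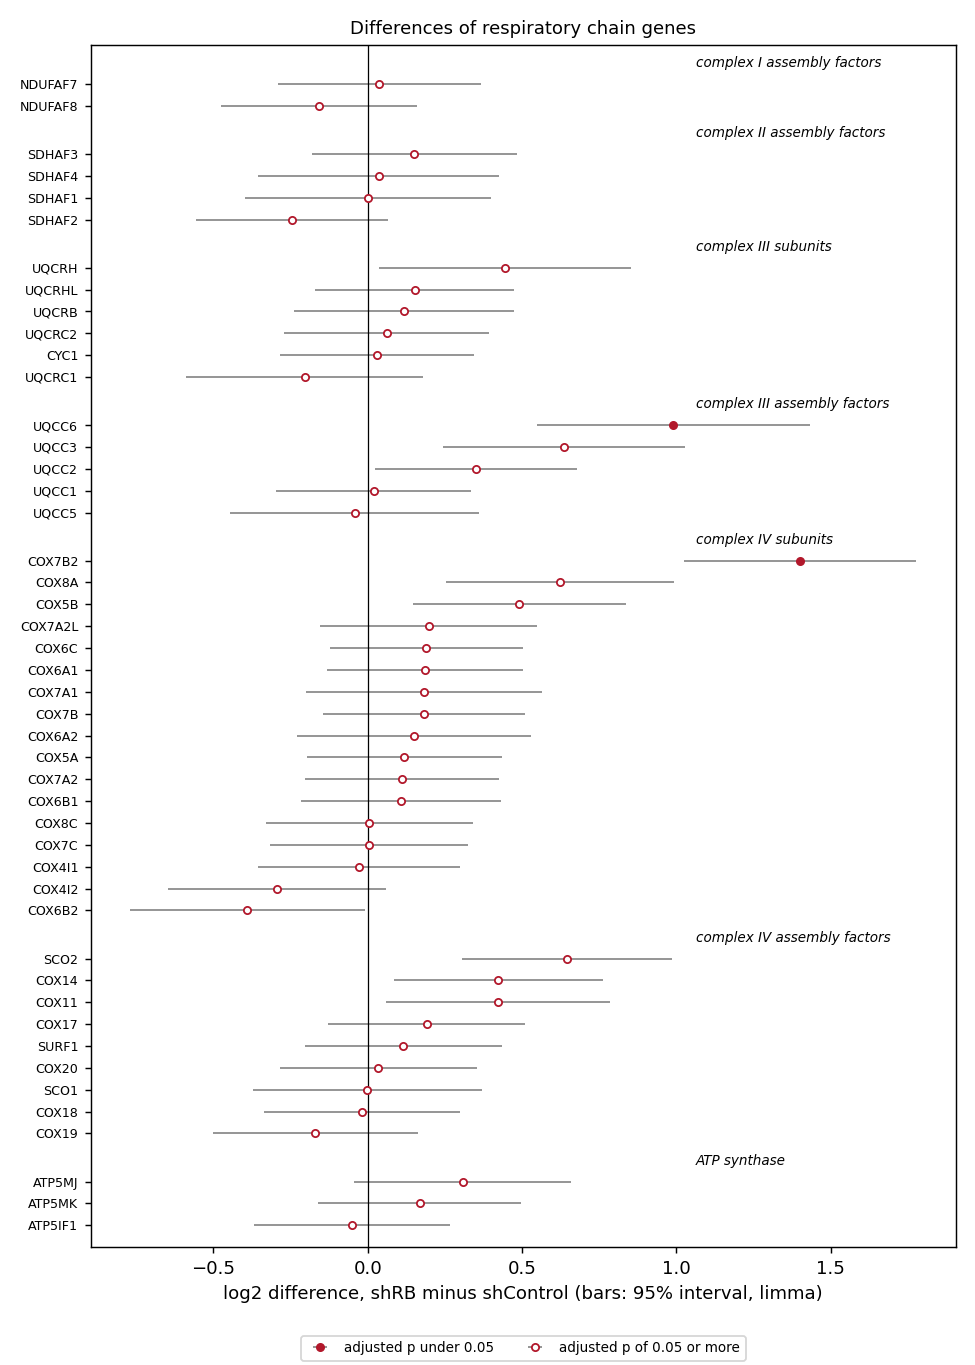
Log2 difference, shRB minus shControl, of each of the 46 members with its 95% interval from limma, by complex. Filled circles are COX7B2 (1.40) and UQCC6 (0.99), which passed at an adjusted p under 0.05, and open circles are the members that did not. Of the 46, 35 lie to the right of 0.

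Of the 6 subunits of complex III none passed, and their differences lay between -0.20 and 0.45. UQCRH, the hinge protein next to cytochrome c1, had 8.40, 8.34 and 8.74 in shRB and 8.28 and 7.81 in shControl. The groups only just separated, and the difference of 0.45 did not pass (adjusted p = 0.238). It was 0.21 without shControl replicate 2 and 0.68 without shControl replicate 1. UQCRHL, its near-identical copy, stood at 0.15, and the probe sets may share signal. CYC1, cytochrome c1, had a difference of 0.03 (95% interval -0.28 to 0.34), and the core proteins UQCRC1 and UQCRC2 stood at -0.20 and 0.06. UQCRC1 was lower in all shRB arrays (8.19, 8.24 and 7.76, against 8.25 and 8.29 in shControl), mainly through shRB replicate 3 (adjusted p = 0.573). UQCRB stood at 0.12, and its pseudogene UQCRBP1, which the rule leaves out, at 0.71 (adjusted p = 0.102).

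Assembly factors of complexes I and II did not pass. SDHAF2, which attaches flavin to the catalytic subunit of complex II, had 6.82, 6.79 and 6.81 in shRB and 7.03 and 7.07 in shControl. Its arrays were tight and did not overlap, at a difference of -0.25 (95% interval -0.56 to 0.06, adjusted p = 0.384). SDHAF1 (0.00) and SDHAF3 (0.15), which help to place the iron-sulfur centres, and SDHAF4 (0.04), which binds the flavinylated subunit, overlapped between groups. NDUFAF8, the partner of the complex I factor NDUFAF5, had 10.55, 10.46 and 10.38 in shRB and 10.63 and 10.61 in shControl (-0.16, adjusted p = 0.602). NDUFAF7, a methyltransferase of complex I assembly, stood at 0.04.

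Of ATP synthase, accessory proteins of the membrane sector and an inhibitor were measured. ATP5MJ, a proteolipid, had 10.02, 9.91 and 10.25 in shRB and 9.85 and 9.65 in shControl. The groups lay narrowly apart, and the difference of 0.31 (95% interval -0.05 to 0.66) did not pass (adjusted p = 0.338). ATP5MK, which helps synthase dimers to form, stood at 0.17 and the inhibitor ATP5IF1 at -0.05.

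Related lists gave 1 further call, among 30 measured genes of the first list and 63 of the other 5. Over all genes, 1.07% were called. Of 37 other assembly factors of the complexes, 30 were measured, with 22 positive differences and a median of 0.18. COA1, a factor of complex I and IV assembly, rose to log2 intensities of 6.44, 6.50 and 6.54 in shRB, against 5.87 and 5.49 in shControl. The arrays lay apart, at a difference of 0.82 (SE 0.16, adjusted p = 0.0403), which was 0.63 without shControl replicate 2 (adjusted p = 0.0871). COA1 also missed the threshold whichever shRB array was left out (adjusted p up to 0.225), after quantile normalization (0.0617), with the constant of 16 removed (0.151) and with the replicate block (0.216). CMC1, a complex IV factor, stood at 0.67 (adjusted p = 0.116).

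Regulators of mitochondrial gene expression (10 measured of 22, median 0.19, 7 positive) had no call. POLRMT, the mitochondrial RNA polymerase, had 6.51, 6.49 and 6.88 in shRB and 5.92 and 5.84 in shControl, at 0.75 (adjusted p = 0.0585), and ESRRA, a nuclear receptor, stood at 0.43 (adjusted p = 0.194). Enzymes and carriers feeding ubiquinone or cytochrome c (12 of 22) had a median of -0.08. GPD2, the mitochondrial glycerol phosphate dehydrogenase, had 5.14, 5.53 and 5.39 in shRB and 6.16 and 5.97 in shControl, at -0.71 (adjusted p = 0.0686), and SQOR stood at -0.48 (adjusted p = 0.136). Both were lower on every shRB array, and neither passed.

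Pyruvate dehydrogenase and citric acid cycle genes (11 of 24) had 3 positive and 8 negative differences and a median of -0.05, with IDH3B at -0.42 (adjusted p = 0.219) and OGDH at -0.40 (0.329). In the glycolysis list (9 of 22, median 0.05) the hexokinases HK2 and HK1 stood at 0.48 (adjusted p = 0.161) and -0.51 (0.180). Mitochondrial carriers and import proteins (21 of 31) had a median of -0.03, with the pyruvate carrier MPC1 at 0.45 (adjusted p = 0.138) and TIMM13 at -0.29 (0.327). In these 5 lists limma called no gene. At an unadjusted p under 0.05, 6 of their 63 measured genes were higher and 4 lower, near the shares of all genes (10.9% and 7.22%). None of the 13 mitochondrially encoded subunits had a named probe set.

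**Figure D5:**
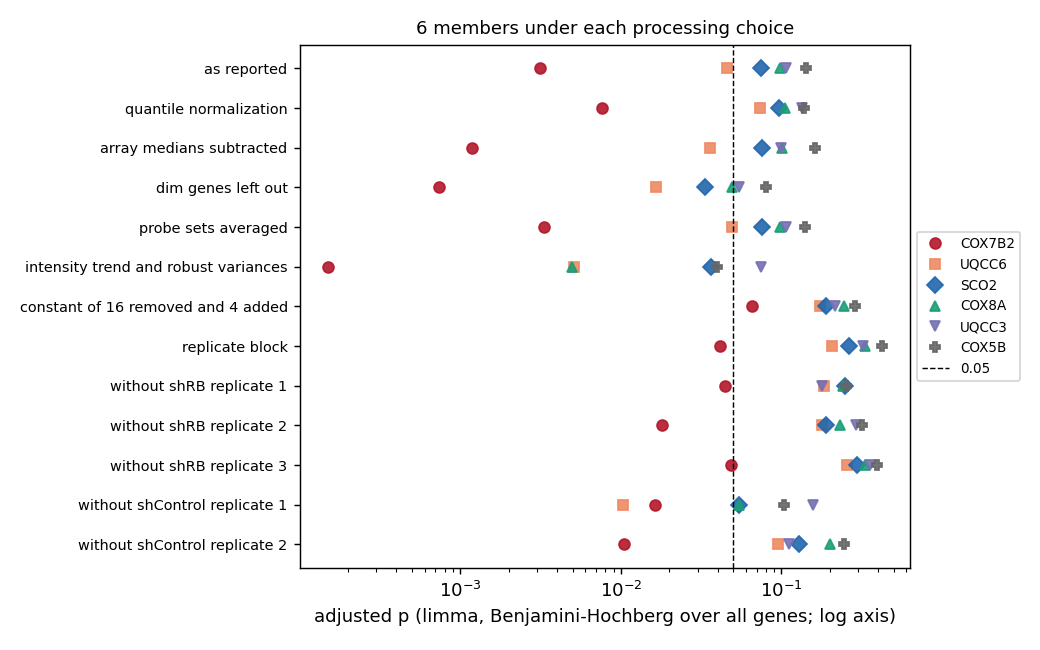
Adjusted p (limma, log axis) of 6 members under each processing choice, with the dashed line at 0.05. COX7B2 lies left of the line in every row but that with the constant of 16 removed (0.0654), UQCC6 crosses it in several rows, and SCO2, COX8A and COX5B pass in at most 2 of the 12 alternatives.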

How the data were processed

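The deposited table gives, for each probe set, an intensity on a linear scale, from biotin-labelled cDNA on single-colour arrays per the labels' protocols. How the authors corrected, normalized and summarised these deposited intensities is not given in the sources used here. The table held 44607 probe sets, of which 15835 had 1 gene symbol, 0 several and 28772 none here. Symbols were updated by Entrez identifier to RefSeq GRCh38.p14 (15835 matched). Each gene was represented by its brightest probe set (mean log2 over the arrays). COX6A1 alone among the members had more than 1.

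Intensities were log2-transformed. The comparison of shRB with shControl used limma 3.58.1 (R 4.3.3; lmFit, eBayes, no covariates, two-sided), Benjamini-Hochberg over 14812 genes, threshold 0.05, with no filter on dim genes. The fit was tested on 20 simulated data sets with normal noise and 200 changed genes each. It called 20.8% of log2 changes of 0.5 and 98.2% of changes of 1. A member that missed the threshold at a difference near 0.5 is therefore not shown to be unchanged. The number of arrays limits the precision.

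All members could be named. Full values were to be given for calls, the largest differences per complex and isoform pairs, and in other lists for calls and the smallest p-values. Members and lists were chosen with earlier results of these data known. Further members with an unadjusted p under 0.05, arrays that did not overlap, gene neighbours and UQCRBP1 were added after their values were seen. Alternatives were quantile normalization, array medians, dim genes left out, averaged probe sets, an intensity trend with robust variances, removal of the constant of 16, a replicate block and leaving out each array.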

Additional observations from a re-analysis of the deposited data

How the results depend on the processing

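The count of members called higher, 2 as reported, was 1 after quantile normalization and 4 of 41 with dim genes left out. It was 5 with an intensity trend and robust variances, 0 with the constant of 16 removed (limma, 6 at an unadjusted p under 0.05) and 1 with the replicate block. Over all genes, calls higher in these settings numbered 60, 267 of 7406 (3.61%), 260 (1.76%), 4 and 8, against 103 (0.695%) as reported. Without 1 shRB array the count of members was 1, where 8 to 12 of all genes were called higher. Members called lower stayed at 0 in every alternative that kept both shControl arrays, with 0 or 1 at an unadjusted p under 0.05. Few genes of any kind were called lower there, 9 to 166 of 14812, and 118 of 7406 with dim genes left out. Positive differences numbered 30 after subtraction of array medians and 32 to 36 without 1 array, and the members' median was 0.08 to 0.14 without 1 array. Genes called in all numbered 385, 426, 13 and 24 with dim genes left out, the trend, the constant removed and the block, and 22 to 411 without 1 array. RB1 passed with dim genes left out (-0.54, adjusted p = 0.0489). The replicate numbers pair no arrays by label. Same-numbered arrays deviated together from their group means at r = -0.02 and 0.05 over 14812 genes. Both shControl arrays deviate equally and oppositely from their mean, so these values are not separate checks and cannot settle whether arrays were paired. In the block, shRB replicate 3 has no partner and is given no weight.

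Across all 46 members, RB1 and COA1, differences whose sign turned under an alternative passed in no setting, and their cause was not tested. The signs turned after quantile normalization were those of COX18 (0.0087), COX4I1 (0.0715), COX8C (-0.0504), NDUFAF7 (-0.0203), SDHAF1 (-0.0556) and UQCC5 (0.0139). The signs turned after subtraction of array medians were those of COX7C (-0.0266), COX8C (-0.0255), CYC1 (-0.0008), SDHAF1 (-0.0289) and UQCC1 (-0.0112). The signs turned with the constant removed were those of COX8C (-0.0018) and SDHAF1 (-0.0035). The signs turned with the block were those of COX18 (0.0082), COX7C (-0.0112), COX8C (-0.0203), SCO1 (0.1259), SDHAF1 (-0.1699) and SDHAF4 (-0.0518). Leaving out 1 array at a time gave ranges that crossed 0 for ATP5IF1 (-0.1113 to 0.0112), COX18 (-0.0646 to 0.0118), COX20 (-0.0249 to 0.0935), COX4I1 (-0.0977 to 0.0219), COX6A2 (-0.0512 to 0.3514), COX7C (-0.0349 to 0.0588), COX8C (-0.0503 to 0.0863), CYC1 (-0.0213 to 0.0813), NDUFAF7 (-0.038 to 0.1125), SCO1 (-0.103 to 0.1259), SDHAF1 (-0.1699 to 0.1008), SDHAF4 (-0.1534 to 0.2253), UQCC1 (-0.0364 to 0.0756), UQCC5 (-0.1952 to 0.1041) and UQCRB (-0.0769 to 0.313).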
